A study of Mus musculus with 27 samples.

Results

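The plasminogen activator system was followed through 5 genes, *Plau*, *Plat*, *Plaur*, *Serpine2* and *Serpinb2*, chosen by name out of the 24454 genes of a table of CPM (reads of a gene per 1000000 assigned reads). All 5 were found in the table by their Entrez identifiers, and all 5 passed the filter of at least 1 CPM in at least 2 libraries. The libraries were 27 RNA-seq libraries of cell lines derived from mammary tumours of female FVB/N mice in which the MMTV promoter drives the polyoma middle T oncogene in the mammary gland. All lines carried mutant alleles of both *Bcl9* and *Bcl9l*, 2 co-factors that link β-catenin to Pygopus. The ΔHD1 alleles lack homology domain 1, which binds Pygopus, and the ΔHD2 alleles lack homology domain 2, which binds β-catenin. In ΔHD1/fl (2 lines) and ΔHD2/fl (2 lines) a floxed, functional allele of each gene was still present. In ΔHD1/- (2 lines) and ΔHD2/- (3 lines) it had been removed with a Cre- and GFP-expressing adenovirus followed by a sort for GFP, so that only the mutant proteins could be made. The lines of a genotype are labelled as coming from different mice. Each of the 9 lines was sequenced once per treatment, so a line has no replicate within a treatment. The treatments were no cytokine (day 4), Wnt3a at 100 ng/ml for 3 days and TGFβ at 2 ng/ml for 4 days. Every Wnt3a change therefore also sets day 3 against day 4, and the effects of Wnt3a and of the day cannot be told apart.

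Plasmin is a broad protease that degrades fibrin and matrix proteins and activates other proteases. It is cut from circulating plasminogen by either of a pair of activators, urokinase (encoded by *Plau*) and tissue plasminogen activator (*Plat*). Urokinase is held at the cell surface by its receptor, uPAR (*Plaur*), and both activators are blocked by serpins, suicide inhibitors that trap the protease. *Serpine2* encodes protease nexin 1, a secreted inhibitor of thrombin, urokinase and tissue activator, and *Serpinb2* encodes plasminogen activator inhibitor 2, a largely intracellular clade B serpin. In the mammary gland and in breast tumours the system is known for its part in tissue remodelling, invasion and spread. TGFβ drives epithelial to mesenchymal transition (EMT) in mammary tumour cells, and Wnt3a activates β-catenin.

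The genes lie on separate chromosomes except for the serpins. In build GRCm38 *Plau* spans chromosome 14 from 20836660 to 20843385 (+ strand), *Plat* chromosome 8 from 22757727 to 22782844 (+) and *Plaur* chromosome 7 from 24462484 to 24475968 (+). *Serpine2* (chromosome 1, 79794197 to 79861180, - strand) and *Serpinb2* (chromosome 1, 107511423 to 107535478, +) share a chromosome. The span of *Serpinb2* overlaps that of *Serpinb10* on the same strand, and whether their counted exons overlap was not examined. RefSeq gave promoter windows for 3 of the 5 genes. Of these, 2 held the letters TGANTCA, the AP-1 motif, in the 250 bases before the start, and these are the *Serpinb2* and *Plaur* windows shown here. Capitals mark the motif, which reads the same on both strands. The windows are chr1:107511173-107511422 for *Serpinb2* and chr7:24462233-24462482 for *Plaur*, both on the + strand of GRCm38.p6 and written 5′ to 3′.
Serpinb2: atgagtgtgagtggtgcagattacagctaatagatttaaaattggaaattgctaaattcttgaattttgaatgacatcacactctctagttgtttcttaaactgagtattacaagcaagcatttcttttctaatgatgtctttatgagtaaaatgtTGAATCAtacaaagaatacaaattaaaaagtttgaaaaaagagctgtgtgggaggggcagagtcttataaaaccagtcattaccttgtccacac
Plaur: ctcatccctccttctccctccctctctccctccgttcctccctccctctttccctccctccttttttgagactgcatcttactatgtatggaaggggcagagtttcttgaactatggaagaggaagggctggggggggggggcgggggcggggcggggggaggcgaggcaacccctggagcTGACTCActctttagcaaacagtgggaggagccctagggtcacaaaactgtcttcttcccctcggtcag
The match began 94 bases before the start in *Serpinb2* and 69 bases before it in *Plaur*. A further *Serpinb2* window, for a start downstream of this one, held the same match 181 bases before that start and had 38.4% G or C. The same letters were found in 6.75% of all 32851 promoter windows of this length. The *Serpinb2* window shown was AT-rich, with 32.4% G or C, against 59.6% in *Plaur* and 78.8% in *Serpine2*, whose window held no match. The SMAD box CAGACA (17.1% of all windows, either strand) and the TCF/LEF letters ATCAAAG (3.21%) were in no window of the 3 genes. A match is a description of the letters and not a site.

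The libraries held 21864011 to 33692360 assigned reads, so that 3 reads, the floor used here, stood for 0.089 to 0.137 CPM. Such a floor reflects counting error alone. *Axin2*, a direct β-catenin target, rose with Wnt3a by 4.22 ± 0.19 (log2, SE, limma adjusted p = 7.26e-10). By genotype the rise was 5.26 (ΔHD1/fl), 3.48 (ΔHD1/-), 4.31 (ΔHD2/fl) and 3.80 (ΔHD2/-). Its mean level with Wnt3a was 69.1, 23.2, 75.3 and 19.0 CPM in the same order. *Fn1*, a matrix gene of EMT, rose with TGFβ by 1.90 ± 0.32 (limma adjusted p = 0.000773). Gene totals of *Bcl9* (34.0 to 66.0 CPM in untreated floxed lines, 43.8 to 67.8 in recombined ones) and *Bcl9l* (172 to 323 and 138 to 318) overlapped between floxed and recombined lines and do not report on a domain or an allele. The lines were not alike in cell character. Line 2 of ΔHD1/fl and line 2 of ΔHD1/- had almost no *Cdh1* (E-cadherin, 0.52 and 0.24 CPM) or *Epcam* and high *Vim* (vimentin, 4188 and 3678 CPM), whereas the other 7 lines had 606 to 1145 CPM of *Cdh1*. The pair differed in *Krt8*, an epithelial keratin gene, which ΔHD1/- line 2 had at 1089 CPM and ΔHD1/fl line 2 at 0.34 CPM. Their 6 epithelial markers summed to 37.6 to 358 CPM over the treatments in ΔHD1/fl line 2 and 1219 to 3003 CPM in ΔHD1/- line 2. In these 2 lines the 6 fibroblast markers summed to 838 to 5359 CPM, against 0.75 to 229 CPM in the other 7, mainly from *Col1a1*, *Col3a1* and *Pdgfra*, while *Lum* was at or near 0 reads in all lines. Lines 2 and 3 of ΔHD2/- were nearly alike: their libraries correlated at 0.997 to 0.999 on the log2 scale within a treatment, against 0.920 to 0.983 in the 15 other pairs of lines of one group. Their *Vim* was 2.48 and 2.60 CPM, against 761 CPM in line 1. The fits count them as 2 lines, and if they are not independent, p-values that involve ΔHD2/- are too small. Differences of ΔHD2/- from ΔHD2/fl in *Plau*, *Plat*, *Serpine2* and *Mrc2* are therefore also given without line 1 and with lines 2 and 3 averaged to 1 line. Of the 6 leukocyte and macrophage markers, *Ptprc* and *Adgre1* reached at most 0.25 and 0.04 CPM and *Cd68* reached 24.5 CPM. *Csf1r*, the receptor gene for macrophage colony-stimulating factor, was at 165, 175 and 67.6 CPM without cytokine, with Wnt3a and with TGFβ in ΔHD1/- line 2, and at most 20.8 CPM in the other lines. The list summed to 72.5 to 187 CPM in that line and to 3.06 to 44.2 CPM in the others. As these are bulk libraries, fewer cells of a type and less RNA per cell cannot be told apart.

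Without cytokine, each of the genes except *Plaur* differed widely over the 9 lines. Among the activators, *Plau* was present at 30.9 to 223 CPM in 7 lines and close to the floor in the remaining 2. It measured 30.9 and 150.0 CPM in the 2 ΔHD1/fl lines, 77.7 and 114 CPM in ΔHD1/-, 68.8 and 55.4 CPM in ΔHD2/fl, and 223, 0.14 and 0.21 CPM in ΔHD2/-. The low values of ΔHD2/- lines 2 and 3 stand for 3 and 5 reads. *Plat* followed a different order, with 2.56 and 219 CPM in ΔHD1/fl, 34.3 and 121 CPM in ΔHD1/-, 13.0 and 21.1 CPM in ΔHD2/fl, and 20.1, 0.41 and 0.46 CPM in ΔHD2/-. Its highest levels, 219 and 121 CPM, were those of the pair of lines with almost no *Cdh1* and high fibroblast markers, whose part in this was not tested. Its lowest were those of the same ΔHD2/- lines that lacked *Plau*.

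The receptor gene *Plaur* had the narrowest range of the members without cytokine. Its untreated levels were 54.1 and 71.5 CPM in ΔHD1/fl, 56.6 and 37.2 CPM in ΔHD1/-, 83.3 and 58.2 CPM in ΔHD2/fl, and 83.5, 56.1 and 71.5 CPM in ΔHD2/-. The highest line exceeded the lowest by 2.24-fold, and the ranges of the genotypes overlapped except that both ΔHD1/- lines lay below both ΔHD2/fl lines. ΔHD2/- lines 2 and 3, which had almost no *Plau*, had receptor levels within the range of the other lines.

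Of the inhibitors, *Serpine2* was the most abundant member in most untreated lines. It measured 429 and 24.5 CPM in ΔHD1/fl, 29.1 and 55.4 CPM in ΔHD1/-, 151 and 397 CPM in ΔHD2/fl, and 379, 619 and 726 CPM in ΔHD2/-, a span of 29.6-fold. The 3 lowest lines were the 2 ΔHD1/- lines and ΔHD1/fl line 2, and ΔHD2/- lines 2 and 3 were the highest. *Serpinb2* was above 10 CPM in the ΔHD2/fl lines alone, with 105 and 72.9 CPM. It measured 8.17 CPM in ΔHD2/- line 1, 5.69 and 0.06 CPM in ΔHD1/- and 0.32 and 0.45 CPM in ΔHD1/fl, and no read was counted in ΔHD2/- lines 2 and 3. With 1 library a line, neighbours in these orders cannot be tested against each other.

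**Figure D1:**
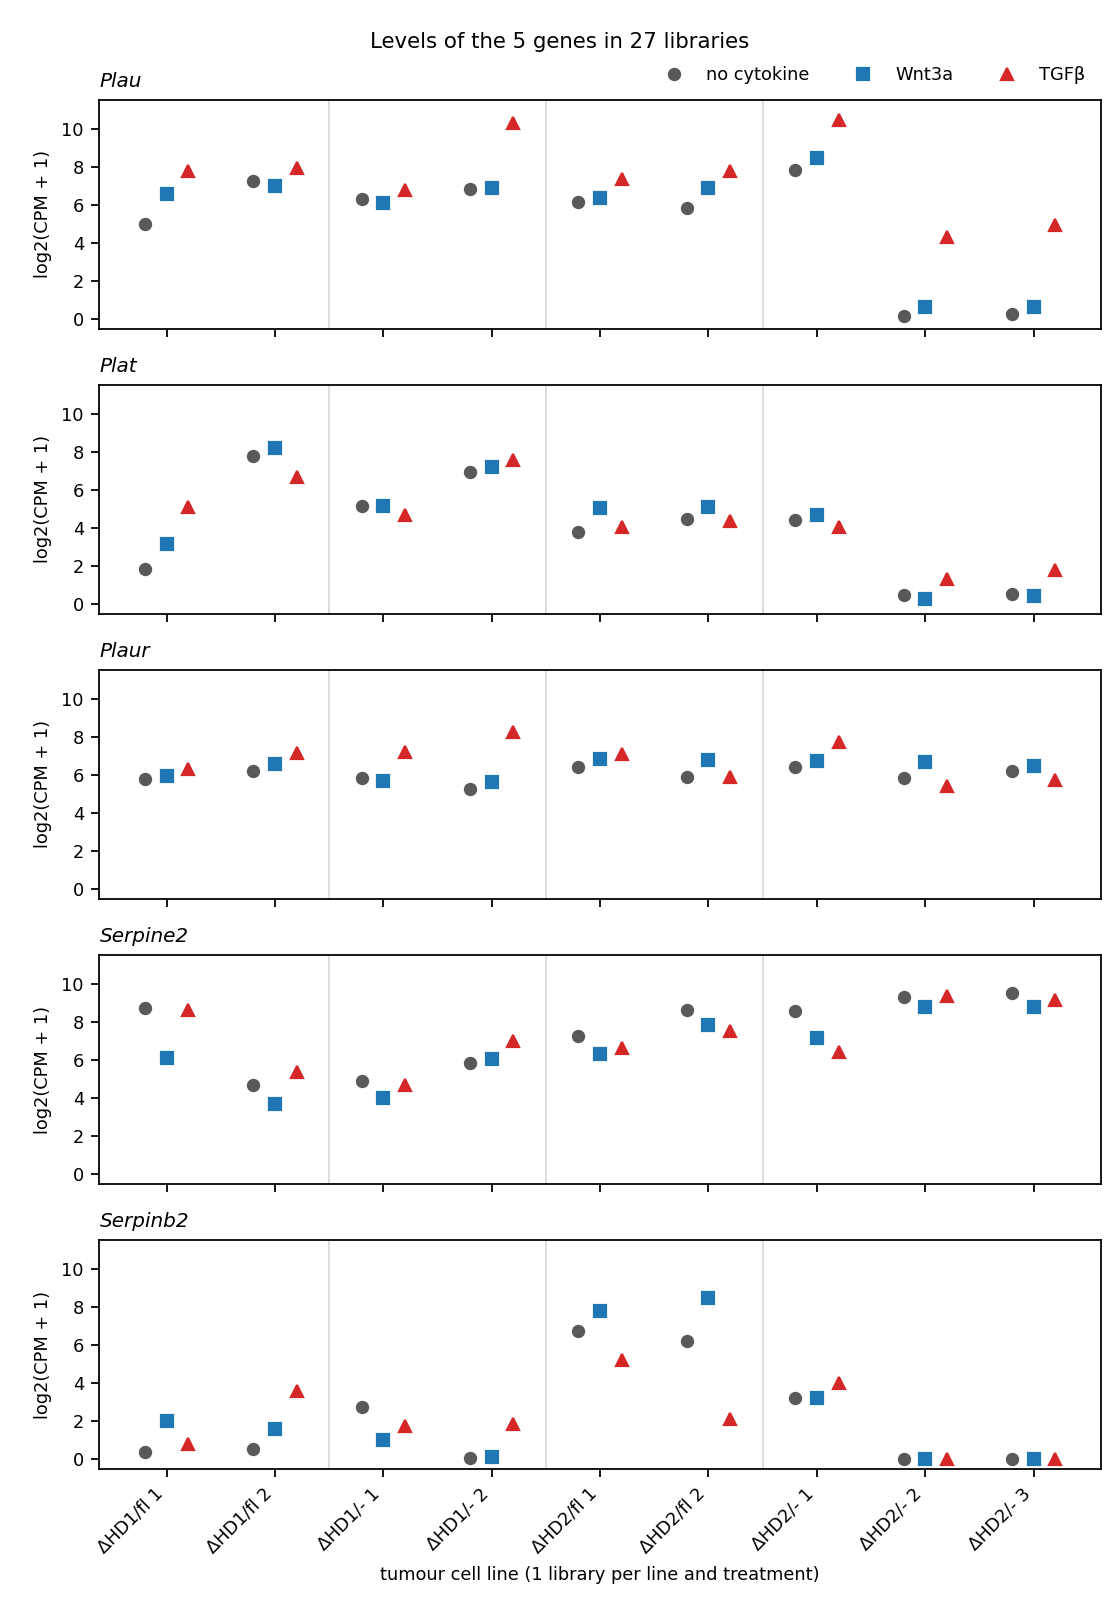
Levels of the 5 genes as log2(CPM + 1) on the vertical axis in each of the 9 lines (horizontal axis), with 1 point per library and treatments by colour and shape. *Plaur* runs level across the lines without cytokine and with Wnt3a, *Plau* and *Plat* drop towards 0 in ΔHD2/- lines 2 and 3 without cytokine, and *Serpinb2* stands high in the 2 ΔHD2/fl lines.

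Divided by exon length, which is needed to compare one gene with another, the untreated medians over the 9 lines were 172 CPM per kb for *Serpine2*, 38.6 for *Plaur*, 29.4 for *Plau*, 7.96 for *Plat* and 0.22 for *Serpinb2*. *Serpine2* was the highest member in 6 of 9 untreated lines. With TGFβ the order of the medians was *Plau* (93.0 CPM per kb), *Plaur* (91.3), *Serpine2* (56.6), *Plat* (7.76) and *Serpinb2* (1.26), and *Plau* was the highest member in 4 lines. With Wnt3a *Plaur* had the highest median (62.3 CPM per kb), and *Serpinb2* was the highest member in both ΔHD2/fl lines.

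Under TGFβ the urokinase gene was the member that moved most. *Plau* was higher with TGFβ than without in 9 of 9 lines, a pattern shown by 5.41% of all genes tested. It reached 218 and 247 CPM in ΔHD1/fl, 107 and 1251 CPM in ΔHD1/-, 162 and 221 CPM in ΔHD2/fl, and 1371, 18.6 and 30.1 CPM in ΔHD2/-. The smallest changes were in ΔHD1/- line 1 (77.7 to 107 CPM, 1.38-fold) and ΔHD1/fl line 2 (150.0 to 247 CPM, 1.65-fold). The 2 highest treated lines, ΔHD1/- line 2 (11.0-fold) and ΔHD2/- line 1 (6.14-fold), were already among the 3 highest untreated lines. In ΔHD2/- lines 2 and 3 the gene went from 3 and 5 reads to 502 and 723 reads, which left it below all untreated levels of the other 7 lines.

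The mean change in *Plau* over the 4 genotypes was 2.28 ± 1.22 on the log2(CPM + 1) scale (SE) in a fit of the 12 group means. With limma the adjusted p was 0.213. A fit that kept each line's 3 libraries together as a block gave the same 2.28 with an SE of 0.34 and an adjusted p of 0.000191, and *Plau* rose. It was also called without ΔHD2/- line 1 (2.42, adjusted p = 0.00132), which leaves the 2 nearly alike lines to stand for that genotype, and in the block fit with those 2 lines averaged to 1 (2.21, adjusted p = 0.00109), a fit added after the data were seen. Calls required an adjusted p of at most 0.05 and a change of at least 1, which 5.42% of the 13270 genes tested met without the block and 8.92% with it.

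*Plaur* changed less and less evenly. It was higher in 6 of 9 lines, at 78.0 and 143 CPM in ΔHD1/fl, 145 and 307 CPM in ΔHD1/-, 138 and 58.1 CPM in ΔHD2/fl, and 208, 41.6 and 52.1 CPM in ΔHD2/-. The widest gain was in ΔHD1/- line 2, from 37.2 to 307 CPM (8.24-fold), the line that also had the second highest treated *Plau*. In ΔHD2/fl line 2 the levels were 58.2 CPM without and 58.1 CPM with TGFβ, and in ΔHD2/- lines 2 and 3 it was lower than without cytokine. The mean change was 0.86 ± 0.28 (SE), with a limma adjusted p of 0.0425 that met the p limit but not the limit on size. It passed both under median-of-ratios scaling (1.03), in edgeR on the recovered reads (1.19) and without ΔHD1/- line 1 (1.07), and under 14 other settings it did not. The median of all genes was -0.16 in this comparison and -0.02 after median-of-ratios scaling.

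The remaining members showed no shared direction with TGFβ. *Plat* was higher in 5 lines and lower in 4, with treated levels of 32.8 and 101 CPM in ΔHD1/fl, 24.7 and 189 CPM in ΔHD1/-, 15.4 and 19.6 CPM in ΔHD2/fl, and 15.6, 1.48 and 2.50 CPM in ΔHD2/-. The largest change was in ΔHD1/fl line 1, from 2.56 to 32.8 CPM (12.8-fold), whereas the other ΔHD1/fl line went from 219 to 101 CPM. The mean change was 0.45 ± 0.94 (adjusted p = 0.788), and it was -0.095 without ΔHD1/fl line 1 and 0.99 without ΔHD1/fl line 2. *Serpine2* was lower in 6 of 9 lines and ranged from 24.4 to 660.5 CPM with TGFβ. The deepest drop was in ΔHD2/- line 1, from 379 to 83.0 CPM, and the largest gain in ΔHD1/- line 2, from 55.4 to 125 CPM. Its mean change was -0.23 ± 0.65 (adjusted p = 0.846). *Serpinb2* was higher in 4 lines, lower in 3 and without reads in 2. It went from 105 to 35.5 CPM and from 72.9 to 3.37 CPM in the ΔHD2/fl lines, and from 0.45 to 11.0 CPM in ΔHD1/fl line 2. Its mean change was -0.10 ± 0.71 (adjusted p = 0.939), and this sign depended on scaling and pseudocount. Cell type markers moved with TGFβ too. In the fit with the block, in which *Plau* was called, 3 of 6 epithelial markers fell (*Krt5* at -2.12, *Krt14* at -2.09 and *Cdh1* at -1.53, adjusted p 0.00412, 4.38e-05 and 0.0481), whereas *Krt18* was at 0.90 (0.0152), *Krt8* at 0.64 (0.0797) and *Epcam* at -0.72 (0.103). In the same fit 1 of 5 tested fibroblast markers rose (*Col1a1*, 1.21, adjusted p = 0.0146), as did 1 of 2 tested leukocyte and macrophage markers (*Csf1r*, 1.49, 0.00315) and 1 of 2 tested endothelial markers (*Cdh5*, 1.20, 0.00234). The remaining tested markers of these 3 lists lay below 0 except *Dcn* (0.10), with *Cd68* at -0.91 (0.000664), *Pecam1* at -0.37 (0.0204), *Pdgfra* at -0.52, *Col3a1* at -0.02 and *Thy1* at -0.01, and none was called. *Csf1r* was nevertheless lower with TGFβ in ΔHD1/- line 2, where it was highest. Of these only *Cdh5* was also called without the block (limma adjusted p = 0.00967), and it reached at most 6.32 CPM. A gene this low can pass the filter through its TGFβ libraries alone, so no conclusion is drawn from its call. Their part in the members' values was not tested.

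By genotype, no member was called with TGFβ without the block, where 0.211% (ΔHD1/fl), 1.43% (ΔHD1/-), 0.286% (ΔHD2/fl) and 0.806% (ΔHD2/-) of all genes were. With the block *Plau* was called in ΔHD2/- (3.80 ± 0.57, adjusted p = 0.00118, against 0.557 without it), where 6.03% of genes were called. This fitted value depends on the pseudocount because 2 of the 3 untreated lines were near the floor, and it was 5.18 with a pseudocount of 0.1. *Plaur* was called with the block in ΔHD1/- (2.17 ± 0.48, adjusted p = 0.00828, against 0.0737 without it), where 9.33% of genes were. *Plau* was also called when ΔHD2/- line 1 was left out (4.40) and in the block fit with lines 2 and 3 averaged (3.52, adjusted p = 0.0279). The value of *Plaur* rests on ΔHD1/- line 2: without the block it was 3.01 (adjusted p = 0.155) without ΔHD1/- line 1 and 1.34 (0.721) without line 2. Over all 95 tests of members and comparisons limma made 0 calls without the block, 2 of the tests had an unadjusted p under 0.05, and edgeR's quasi-likelihood test made 1 call.

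**Figure D2:**
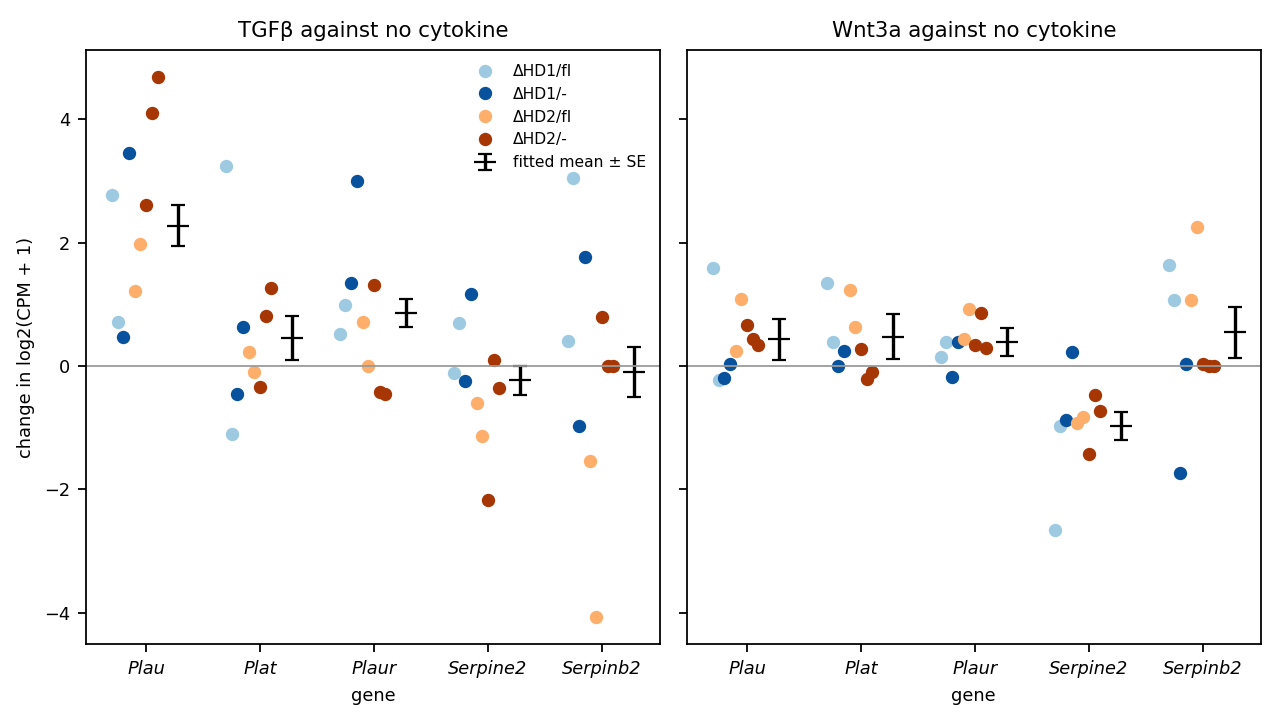
Change in log2(CPM + 1) of each gene with TGFβ (left) and Wnt3a (right) against the same line without cytokine, 1 point per line coloured by genotype, and the fitted mean over genotypes ± SE from the fit with the line as a block in black. *Plau* lies above 0 in 9 of 9 lines with TGFβ, and *Serpine2* below 0 in 8 of 9 lines with Wnt3a.

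No member passed the threshold with Wnt3a, and the largest fitted mean changes were those of the inhibitor genes. *Serpine2* was lower in 8 of 9 lines, a pattern that 11.8% of all genes tested showed in at least 8 lines. With Wnt3a it measured 66.7 and 12.01 CPM in ΔHD1/fl, 15.3 and 64.8 CPM in ΔHD1/-, 79.0 and 224 CPM in ΔHD2/fl, and 140.3, 446 and 439 CPM in ΔHD2/-. The deepest drop was in ΔHD1/fl line 1 (from 429 CPM), and ΔHD1/- line 2 was the exception (from 55.4 CPM). The mean change was -0.97 ± 0.65 (SE, limma adjusted p = 1.00), and with the line as a block the SE was 0.23 and the adjusted p 0.0755, so it was called in neither. Its 17 alternatives gave values from -1.19 to -0.76.

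*Plaur* was higher with Wnt3a in 8 of 9 lines, as were 5.35% of all genes in at least 8 lines, but by little. It measured 60.1 and 93.8 CPM in ΔHD1/fl, 50.1 and 49.2 CPM in ΔHD1/-, 113 and 111 CPM in ΔHD2/fl, and 105, 102 and 87.4 CPM in ΔHD2/-. The single line that was lower was ΔHD1/- line 1, and the mean change was 0.39 ± 0.28 (adjusted p = 1.00). *Plau* was higher in 7 lines and *Plat* in 6, with mean changes of 0.43 ± 1.22 and 0.48 ± 0.94. The largest gain of both on the log2(CPM + 1) scale was in ΔHD1/fl line 1, from 30.9 to 95.3 CPM for *Plau* and from 2.56 to 8.02 CPM for *Plat*. *Plau* went from 3 to 13 reads and from 5 to 15 reads in ΔHD2/- lines 2 and 3 (0.54 CPM in both with Wnt3a) and from 223 to 352 CPM in line 1.

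*Serpinb2* with Wnt3a went from 105 to 221 CPM and from 72.9 to 353 CPM in the ΔHD2/fl lines, the highest levels of this gene in any library. It went from 0.32 to 3.11 CPM and from 0.45 to 2.02 CPM in ΔHD1/fl, where the untreated values stand for 7 and 12 reads. In the recombined lines it went from 5.69 to 1.01 CPM and from 0.06 to 0.08 CPM in ΔHD1/-, and from 8.17 to 8.40 CPM in ΔHD2/- line 1. The mean change was 0.54 ± 0.71 (adjusted p = 1.00). No member was called in the mean Wnt3a response, where 0.0226% of all genes were called (0.241% with the block), and edgeR called 0. Without the block no member had an unadjusted p under 0.05, and with it *Serpine2* had (limma, unadjusted 0.00113, adjusted p = 0.0755). Within genotypes the share of genes called was 0.0151% (ΔHD1/fl), 0.00754% (ΔHD1/-), 0.113% (ΔHD2/fl) and 0.00754% (ΔHD2/-), and none of them was a member.

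Loss of the floxed allele in ΔHD1 lines left no member past the threshold. None of the 5 was called in ΔHD1/- against ΔHD1/fl without cytokine, with Wnt3a or with TGFβ, where 0.0678%, 0.0452% and 0.0301% of all genes were, none had an unadjusted p under 0.05 in the fit without the block, and edgeR called 0. The lowest adjusted p was that of *Plaur* under TGFβ, with 145 and 307 CPM in ΔHD1/- against 78.0 and 143 CPM in ΔHD1/fl, a difference of 0.99 ± 0.58 (adjusted p = 0.732). The ranges of *Plaur* did not overlap there, as for 6.77% of genes that were higher in both ΔHD1/- lines. With Wnt3a its difference went the other way, at 50.1 and 49.2 against 60.1 and 93.8 CPM (-0.59, limma adjusted p = 0.971). *Serpinb2* with Wnt3a was at 1.01 and 0.08 CPM in ΔHD1/- against 3.11 and 2.02 CPM in ΔHD1/fl (-1.26, limma adjusted p = 0.979). In each genotype 1 line had *Cdh1* and the other did not, and *Plat* followed that split: its untreated levels were 219 and 121 CPM in the lines without *Cdh1* and 2.56 and 34.3 CPM in those with it.

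*Serpinb2* in the ΔHD2 lines is the contrast by which the gene was named, so its values are given without a test. Without cytokine the ΔHD2/fl lines had 105 and 72.9 CPM (2443 and 1969 reads) against 8.17 CPM (187 reads) in ΔHD2/- line 1 and 0 reads in lines 2 and 3. Line 1 was 8.93-fold below the lower ΔHD2/fl line, and lines 2 and 3 were at least 539.6-fold and 580.4-fold lower, taking 3 reads in a library as the floor. With Wnt3a the ΔHD2/fl lines had 221 and 353 CPM, line 1 of ΔHD2/- 8.40 CPM, which was 26.3-fold lower, and lines 2 and 3 again 0 reads, at least 1777-fold and 2062-fold lower. With TGFβ the groups overlapped: ΔHD2/fl had 35.5 and 3.37 CPM, and ΔHD2/- line 1, at 14.9 CPM, lay between them, while lines 2 and 3 stayed at 0 reads, at least 30.4-fold and 26.98-fold below the lower ΔHD2/fl line. The 4 ΔHD1 lines, floxed and recombined, had 0.06 to 5.69 CPM without cytokine and were also below both ΔHD2/fl lines.

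Among the other members in ΔHD2 lines, *Plau* in ΔHD2/- line 1 was above both ΔHD2/fl lines under each treatment, and in lines 2 and 3 it was below both. The difference of ΔHD2/- from ΔHD2/fl was -3.22 ± 2.32 without cytokine (limma adjusted p = 0.740), -3.40 ± 2.32 with Wnt3a (0.770) and -1.01 ± 2.32 with TGFβ (0.998). Without line 1 it was -5.74 (adjusted p = 0.000713) and -6.01 (0.000524) in the first and second of these and was called, and under TGFβ it was -2.95 (0.0659). These p-values take a line's 3 libraries as independent and rest on the nearly alike lines 2 and 3. They can therefore be too small. On all lines edgeR gave 0.26, 0.23 and 1.35 for the 3 treatments, and under TGFβ the block by replicate number gave 0.10, so that the sign depended on the fit. With lines 2 and 3 averaged to 1 line it was -1.95, -2.09 and -0.03 under the 3 treatments (adjusted p 1.00 in each). *Plat* too was below both ΔHD2/fl lines in lines 2 and 3 under each treatment and close to them in line 1, with differences of -2.32 ± 1.79, -3.27 ± 1.79 and -1.81 ± 1.79 (adjusted p 0.763, 0.670 and 0.901). Without line 1 these were -3.62, -4.71 and -2.64, with lines 2 and 3 averaged -1.68, -2.55 and -1.38, and none was called. All 3 ΔHD2/- lines had less *Plat* than both ΔHD2/fl lines with Wnt3a (24.5, 0.21 and 0.36 against 31.8 and 33.1 CPM), a pattern of 15.6% of genes. *Serpine2* went the other way: lines 2 and 3 of ΔHD2/- lay above both ΔHD2/fl lines under each treatment, and line 1 lay between them or, with TGFβ, below both. Its differences were 1.18 ± 1.24, 1.18 ± 1.24 and 1.24 ± 1.24 (adjusted p 0.846, 0.888 and 0.906). Averaging lines 2 and 3 gave 1.04, 0.90 and 0.76, and leaving out line 1 gave 1.45, 1.73 and 2.19. Leaving out ΔHD2/fl line 1 gave 0.48, 0.43 and 0.81, and *Serpine2* was called in none of these fits. *Plaur* overlapped between genotypes without cytokine and with TGFβ. With Wnt3a all 3 ΔHD2/- lines (87.4 to 105 CPM) were below both ΔHD2/fl lines (111 and 113 CPM), as for the same 15.6% of genes. No member was called in the ΔHD2 comparisons, in which 0.55% (no cytokine), 0.686% (Wnt3a) and 0.354% (TGFβ) of all genes were, none of the 4 members tested had an unadjusted p under 0.05 in the fit without the block, and edgeR called 0.

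**Figure D3:**
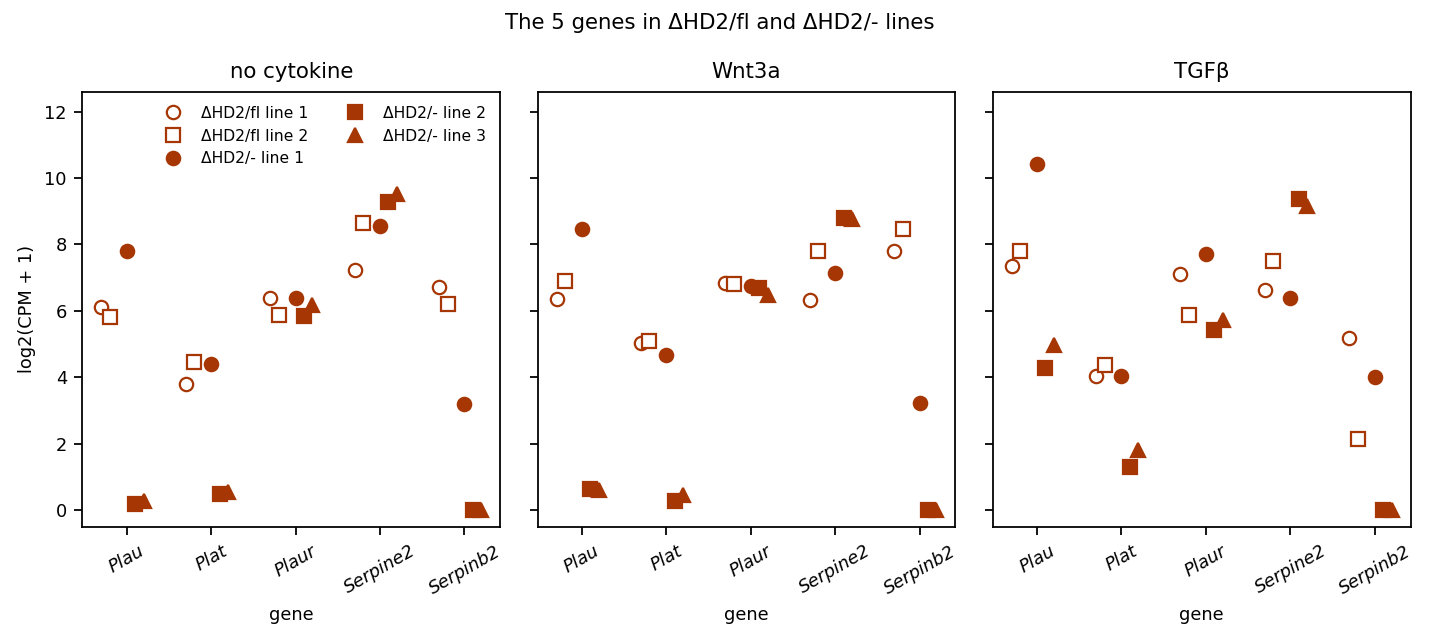
Levels of the 5 genes as log2(CPM + 1) in the 2 ΔHD2/fl lines (open symbols) and the 3 ΔHD2/- lines (filled symbols) under each treatment, 1 point per library. ΔHD2/- lines 2 and 3 lie near 0 for *Plau*, *Plat* and *Serpinb2* without cytokine, whereas line 1 lies near or above the ΔHD2/fl lines for *Plau* and *Plat*.

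Whether a cytokine acted differently in recombined lines was tested as the difference between responses. No member was called in the 4 such differences, in which 0.0% (Wnt3a, ΔHD1), 0.0151% (Wnt3a, ΔHD2), 0.00754% (TGFβ, ΔHD1) and 0.0301% (TGFβ, ΔHD2) of all genes were called without the block. There none had an unadjusted p under 0.05, and edgeR called 0. With the line as a block, which is the paired form of this test, no member was called either, against 0.0%, 0.121%, 0.0226% and 0.098% of all genes. The lowest unadjusted p in that fit were those of *Plau* with TGFβ in ΔHD2 (2.20 ± 0.90, unadjusted p = 0.0307, adjusted p = 0.546) and *Serpine2* with Wnt3a in ΔHD1 (1.49 ± 0.68, unadjusted p = 0.0495, adjusted p = 1.00). *Serpinb2* in the ΔHD2 differences was not tested. Its change with Wnt3a in ΔHD2/fl lines was upward in both, and in ΔHD2/- it was from 8.17 to 8.40 CPM in the 1 line with reads.

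Of 38 other genes of the plasminogen system and its serpin relatives, 25 passed the filter, and 2 of the 25 were called in the mean TGFβ response, beside 5.42% of all genes. Plasminogen itself (*Plg*) had no read without cytokine or with Wnt3a and at most 0.071 CPM with TGFβ, so that its transcript was at or under the floor in these cells. Among the surface proteins that bind plasminogen, *Anxa2* (410 to 2768 CPM untreated) and its partner *S100a10* (258 to 983 CPM) were abundant in all lines, and 0 of the 4 tested genes of that list were called with TGFβ by limma, 3 having an unadjusted p under 0.05 and 0 being called by edgeR. Of 7 tested clearance receptors and uPAR partners 1 rose with TGFβ: *Itgb1*, the β1 integrin with which uPAR associates, rose by 1.22 ± 0.23 (log2, SE, adjusted p = 0.00162). It stood higher in each of the 9 lines, as did 5.41% of genes, going from 598 to 1077 CPM without to 1054 to 3033 CPM with the cytokine. Of 3 tested inhibitors outside the members 1 fell: *Serpinb8*, an intracellular clade B serpin, fell by 1.67 ± 0.46 (adjusted p = 0.0194), from 6.33 to 52.7 CPM without to 1.23 to 14.9 CPM with TGFβ, lower in 9 of 9 lines as were 15.7% of genes. The call of *Serpinb8* was lost when any one of the ΔHD1 or ΔHD2/fl lines was left out (adjusted p 0.05001 to 0.0782).

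Of the 9 tested clade B serpins other than *Serpinb2*, only *Serpinb8*, which is also on the list of inhibitors, was called in the mean TGFβ response without the block. None was called of the 4 tested genes listed as proteases of pro-urokinase activation (*St14*, *Hpn*, *Prss8* and *Tmprss4*). Which of these act on pro-urokinase directly was not examined. With edgeR, which called 855 of all 13270 genes, 4 of the clade B serpins and 1 of the proteases were called. With the block, which called 8.92% of all genes, *Serpinb5* (maspin, an epithelial serpin, -1.15, adjusted p = 0.00534) and *Prss8* (prostasin, a membrane-anchored serine protease of epithelia, -1.66, adjusted p = 0.00850) fell too. *Prss8* had at most 0.036 CPM in the 2 lines without *Cdh1*, and 0 to 26.6 CPM with TGFβ in the others, against 3.47 to 60.4 CPM without cytokine. The medians of the lists in the mean TGFβ response were -0.46 for plasminogen receptors, 0.04 for inhibitors, 0.39 for clearance receptors and uPAR partners, -1.18 for proteases and -0.36 for clade B serpins, beside -0.16 over all genes. In the mean Wnt3a response 0 of the 25 were called by limma, with or without the block, and by edgeR. Without the block 3 had an unadjusted p under 0.05 and with it 7, and the list medians ran from -0.08 to 0.26. In ΔHD2/- against ΔHD2/fl, *Mrc2*, an endocytic collagen receptor of the uPAR complex, was lower with TGFβ (0.53, 0.22 and 0.17 against 5.78 and 2.63 CPM, -1.94 ± 0.34, limma adjusted p = 0.0153). *Mrc2* passed the filter only through ΔHD2/fl, the group where it is high. Outside that group its highest level was 1.14 CPM, in a ΔHD1/fl library with TGFβ. The filter thus favoured this call, the fit took a line's 3 libraries as independent, and no conclusion is drawn from it. *Mrc2* is a low-level gene, and its call was lost in 6 of 16 alternatives, among them those without ΔHD2/- line 2 (adjusted p = 0.247) or line 3 (0.270) and with these lines averaged to 1 (-1.88, 0.252), whereas without line 1 it was called (-2.05, 0.00924). *Serpinb10*, the neighbour that overlaps *Serpinb2*, had 0, 0 and 0.07 CPM in ΔHD2/- against 2.30 and 3.45 CPM in ΔHD2/fl with Wnt3a. Because the spans of these genes overlap and *Serpinb2* was named by this contrast, no test is given for *Serpinb10*.

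**Figure D4:**
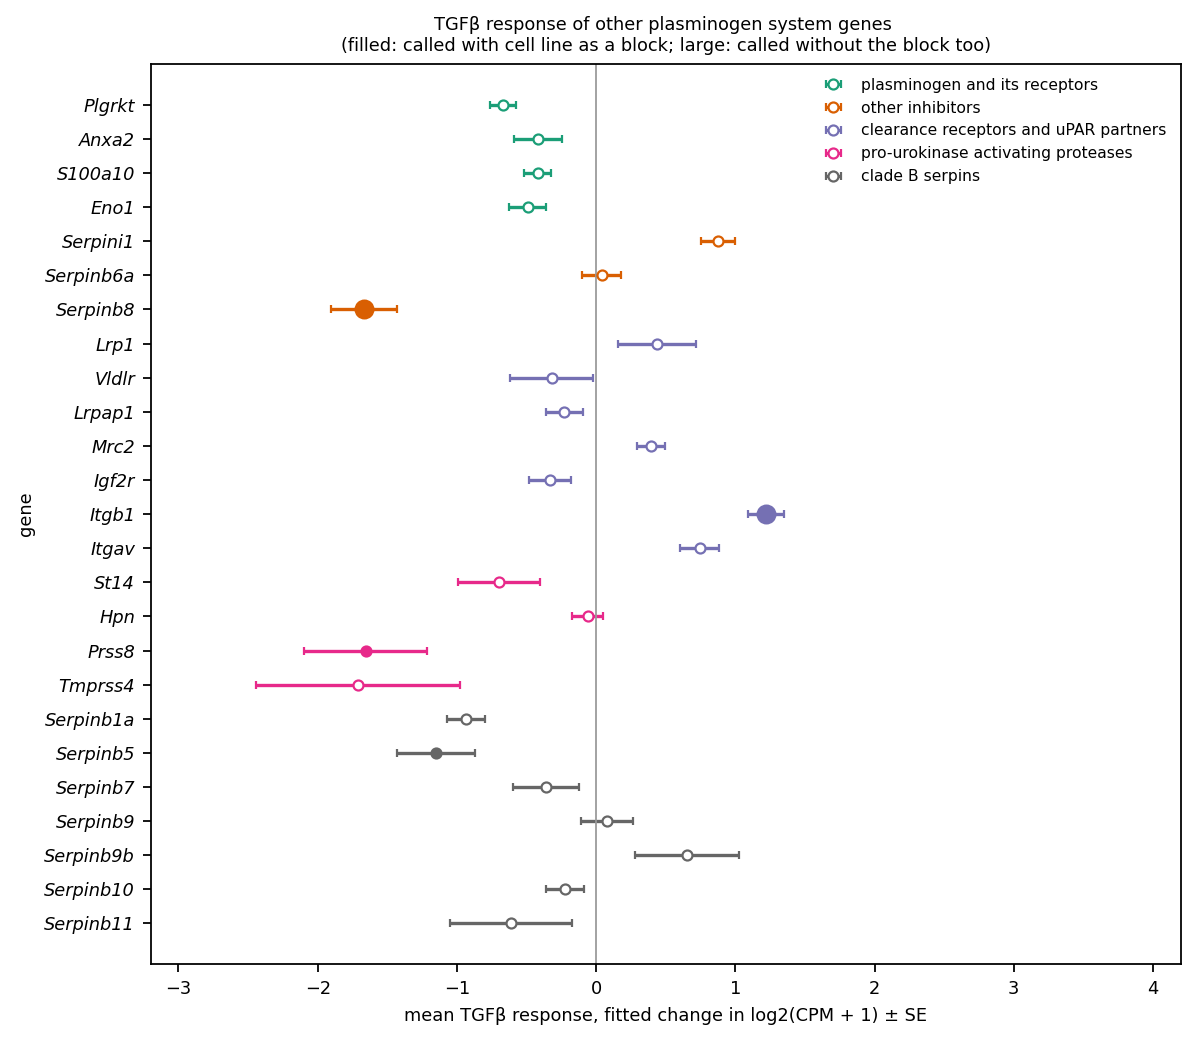
Fitted mean TGFβ response (change in log2(CPM + 1), horizontal axis, ± SE from the fit with the line as a block) of the 25 tested genes of the other lists, coloured by list. Filled symbols passed the threshold with the block and large symbols also without it: *Itgb1* at 1.22 and *Serpinb8* at -1.67 are large, *Serpinb5* and *Prss8* small and filled.

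The genes whose levels over the 27 libraries followed each member most closely are given as a description, from 10458 genes with a mean of at least 5 CPM. The libraries share lines and are not independent. For *Plau* they were *Sh3pxd2b* (Pearson r = 0.96), an adaptor of invadopodia, *Ddah1* (0.91) and *Pdgfc* (0.91). For *Plat* they were *Mpp2* (0.94), *St3gal2* (0.92) and *Sec24d* (0.92), and for *Serpine2* *Pogk* (0.88), *Sema6a* (0.87) and *Arap2* (0.87). For *Serpinb2* they were *Ccnd2* (0.85), *Aldh1a3* (0.83) and *Tuba8* (0.82). *Plaur* had the weakest partners, with *Mtpn* (0.71), *Denr* (0.70) and *Phlda1* (0.68).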

How the data were processed

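Gene expression was measured by stranded mRNA sequencing in 27 libraries. Per the labels and the study's methods, the authors aligned single reads with STAR to mm10, kept unique hits, counted reads starting in RefSeq exons and deposited CPM per Entrez gene. The deposited CPM values were whole multiples of 1 read in each library (tolerance 0.05 reads, 100% of values), so reads were recovered. No column was left unused. Symbols were matched for 24374 of 24454 identifiers and 80 had none. Annotation came from GENCODE M21 (GRCm38), and promoters from RefSeq.

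Groups came from the labels. The members and lists were chosen with earlier results of these data known. Named are the 5 members, list genes that were called, checks and the 3 most similar genes per member. limma 3.58.1 (R 4.3.3, trend and robust options) was run on log2(CPM + 1) with 12 group means and 20 contrasts. The 13270 genes that reached 1 CPM in 2 or more libraries were tested. A call needed p no higher than 0.05 after Benjamini-Hochberg adjustment over these genes and a log2 change of 1 or more in either direction. Because of the pseudocount, low genes change by less on this scale than in CPM. The fits were repeated with 0.1 as pseudocount, without the filter, after scaling by median of ratios, on just the groups compared, with a block, leaving out each of the 9 lines, averaging ΔHD2/- lines 2 and 3 (with the block as well, added after the data were seen), and edgeR 4.0.16 quasi-likelihood tests with TMM on the recovered reads, which called 855 genes in the mean TGFβ response against 719 by limma. The fits were first run on simulated libraries drawn independently, with no effect of line or genotype. Error rates with correlated lines were not tested by this.

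Same-numbered libraries of a genotype are the same cell line under each treatment, so they are paired by design. Their deviations from the group means correlated at 0.509 to 0.94 in 27 pairs, of which 18 are distinct because deviations mirror each other where a genotype has 2 lines. With 2 or 3 lines a genotype, p-values measure the spread between these lines only. Fits of floxed against recombined lines estimate that spread from libraries taken as independent, although each line gives 3 of them. Their p-values can therefore be too small. Lines with wild-type *Bcl9* and *Bcl9l* or with mutant β-catenin were not analysed here.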

Additional observations from a re-analysis of the deposited data

How the results depend on the processing

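The number of members called without a block was 0 in all 20 comparisons. In the mean TGFβ response it was 1 under median-of-ratios scaling (*Plaur*), 1 in edgeR (*Plaur*), 1 with the replicate block (*Plau*; also 1 in the block fit with ΔHD2/- lines 2 and 3 averaged, chosen after seeing the data) and 0 to 1 when single lines were left out. The block, with or without this averaging, also gave 1 member called in the TGFβ response of ΔHD1/- and 1 in that of ΔHD2/-, and changed no other member's call. Leaving out single lines gave 0 to 1 there and in ΔHD2/- against ΔHD2/fl without cytokine and with Wnt3a, where *Plau* was called without ΔHD2/- line 1. The block by replicate number between floxed and recombined lines, where the number is not known to mark a shared tumour, called no member. The number of other system genes called with TGFβ was 2, and became 4 with a pseudocount of 0.1, 4 with the block (4 also with the averaging), 6 in edgeR and 1 to 2 without single lines (1 without ΔHD1/fl line 2, ΔHD1/- line 2 or either ΔHD2/fl line). Of all 13270 genes, 719 were called in that response without the block, 1184 with it and 855 in edgeR. With Wnt3a the number of other system genes called was 0, and 0 to 1 without single lines (1 without ΔHD1/fl line 2).

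Signs turned for values that were not called. The mean TGFβ response of *Serpinb2* became 0.36 with a pseudocount of 0.1, 0.0134 under median-of-ratios scaling and 0.78 in edgeR, and ran from -0.45 to 0.24 without single lines (0.23, 0.24 and 0.21 without ΔHD1/fl line 1, ΔHD1/- line 1 and ΔHD2/fl line 2). That of *Serpine2* was 0.0034 in edgeR and that of *Plat* ran from -0.095 (without ΔHD1/fl line 1) to 0.99. The ΔHD2/- minus ΔHD2/fl difference of *Plau* was 0.26 (no cytokine), 0.23 (Wnt3a) and 1.35 (TGFβ) in edgeR, and under TGFβ 0.10 with the block and -2.95 (without ΔHD2/- line 1) to 0.12 (without line 2) when lines were left out. The cause was not tested. Without cytokine and with Wnt3a, *Plau* (3 to 15 reads), *Plat* (5 to 11 reads) and *Serpinb2* (0 reads) in ΔHD2/- lines 2 and 3 are near the floor, where the size of a fold depends on the pseudocount, and with 2 or 3 lines a genotype the spread between lines limits what could be called.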

Other observations

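*Serpinb7* and *Serpinb11*, clade B serpins of chromosome 1 like *Serpinb2*, were singled out after their values were seen. None of the 9 tested genes of that list passed the threshold in the mean Wnt3a response, in which *Serpinb5* measured -0.24 and *Serpinb8* 0.24. *Serpinb11* went from 1.14 to 57.0 CPM in ΔHD1/fl line 1, and from 1.34 to 14.1 CPM and from 3.04 to 47.6 CPM in the ΔHD2/fl lines, whereas it stayed under 0.4 CPM in ΔHD1/fl line 2, both ΔHD1/- lines and ΔHD2/- line 1. ΔHD2/- lines 2 and 3, with no *Serpinb2* read, went from 0.23 to 3.20 CPM and from 0.04 to 1.61 CPM. *Serpinb7* went from 0.41 to 8.40 CPM in ΔHD1/fl line 1 and from 1.51 to 2.70 CPM and from 0.63 to 2.42 CPM in ΔHD2/fl, and in the other 6 lines it had at most 0.149 CPM without and 0.249 CPM with Wnt3a. With TGFβ both genes were at or under 0.04 CPM in all 9 lines, below the floor, while *Serpinb2* still had 35.5 and 3.37 CPM in ΔHD2/fl.

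*Tmprss4*, a membrane serine protease that can activate pro-urokinase, was also picked after its values were seen. It went with Wnt3a from 16.6 to 285 CPM in ΔHD1/fl line 1, from 10.5 to 93.3 CPM and from 9.08 to 89.9 CPM in ΔHD2/- lines 2 and 3, and from 2.67 to 25.6 CPM and from 3.96 to 26.4 CPM in ΔHD2/fl. It went from 0.64 to 0.98 CPM in ΔHD1/- line 1 and from 0.39 to 0.54 CPM in ΔHD2/- line 1. It had no read in the 2 lines without *Cdh1*, and at most 0.114 CPM in any line with TGFβ. Its mean Wnt3a response did not pass the threshold.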
